A study of Mus musculus with 14 samples.

Results

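Most regions of H3K27ac in these tumour cells lay at H3K4me3. The regions described here are the remainder, H3K27ac regions that shared no base with an H3K4me3 peak. They were selected on the authors' peak calls for these 2 marks. Peaks of H3K27ac from Ezh2 knockout and Cas9 tumour cells were merged where they overlapped, which gave 10599 regions. Of these, 571, or 5.39% (4.97 to 5.83), overlapped no H3K4me3 peak of either kind of cell by 1 bp, and they are called away regions below. The number depends on the peaks that are kept, and it was 2587 when the upper 50% of H3K4me3 scores alone were used, 338 when H3K27ac peaks within 1 kb were merged and 89 in the upper 50% of H3K27ac scores. Brackets after a share hold its Wilson 95% interval, which covers counting error only, and all positions are in mouse genome build mm9.

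The knockout cells were tumour cells of genotype p53-/-;p18-/-;Ezh2-/- and the Cas9 cells were tumour cells of genotype p53-/-;p18-/-, so the loss of p53 and p18 was shared by both. Both were grown as tumourspheres of Myc-driven Group 3 medulloblastoma, a childhood tumour of the cerebellum, after retroviral infection and sorting for red and green fluorescence. The neurospheres, floating cultures of neural cells labelled p53-/-;p18-/-, were profiled with a Gfi1 antibody in cells labelled Suz12F2 and Cas9, and with a Cas9 antibody in cells labelled Suz12F1, Suz12F2 and U6. There was 1 library in each group and whether a culture was clonal is not stated, so no value has a replicate error and no test across samples was possible. Regions of 1 library are not replicates of its condition.

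Acetylation of histone H3 at lysine 27 marks promoters and enhancers in use, and trimethylation at lysine 4 marks promoters, so that acetylation without lysine 4 trimethylation is commonly taken to point to enhancers, stretches of DNA that raise transcription of a gene from a distance. Ezh2, the enzyme of Polycomb repressive complex 2, places trimethylation on lysine 27, and a given lysine cannot carry acetyl and methyl groups at once. Gfi1 is a zinc finger repressor of transcription, which recruits enzymes that remove active marks. Monomethylation of lysine 4, the usual companion of H3K27ac at enhancers, was not analysed here, and away regions are therefore candidates only.

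The lists behind these regions held 10112 H3K27ac peaks in the knockout and 7951 in Cas9 cells, and 14417 and 14363 H3K4me3 peaks. Read depth is unknown. The authors' peak numbers show that 467 numbers of the knockout H3K4me3 list and 486 of the Cas9 list were not analysed here. Of the 571 away regions, 47 lay between 2 H3K4me3 peaks whose numbers were not consecutive, with 17 called in the knockout alone, 15 in Cas9 cells alone and 15 in both. For these 47 an H3K4me3 peak may have been missed. Without them, 524 away regions remained. Likewise 363 peak numbers of the knockout H3K27ac list and 375 of the Cas9 list were not analysed here, so a region may be called in 1 kind of cell alone for want of such a peak.

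By call, 304 away regions were found in the knockout alone, 98 in Cas9 cells alone and 169 in both. The classes made up 53.2% (49.1 to 57.3), 17.2% (14.3 to 20.5) and 29.6% of the away regions. Over all 10599 H3K27ac regions the same classes made up 26.8%, 6.46% and 66.7%. Presence or absence of a call in each list was part of how the regions were chosen, so these shares describe them and were not tested. They also rested on the length of the lists. After the lowest-scoring knockout H3K27ac peaks were dropped until both lists held 7951, there were 368 away regions. The knockout alone then had 99, Cas9 cells alone 148 and both 121, or 26.9%, 40.2% and 32.9%. Over all H3K27ac regions in that setting the classes made up 15.2%, 14.6% and 70.2%. Which kind of cell had more away regions of its own was reversed by the cut of the knockout list. Only that list was cut, so a region called in both could lose its knockout peak and count as one of Cas9 cells alone. The direction of the shift was therefore set by the procedure.

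Regions called in 1 kind of cell were more often away from H3K4me3 than regions called in both. Of 2843 regions of the knockout alone, 10.7% (9.61 to 11.9) were away, as were 14.3% (11.9 to 17.1) of 685 regions of Cas9 cells alone, against 2.39% (2.06 to 2.77) of 7071 regions called in both. The order was the same with lists of equal length, at 7.09% (5.86 to 8.55), 11.1% (9.51 to 12.9) and 1.88% (1.58 to 2.24). Of the regions that were left out, 185 of the knockout alone lay at an H3K4me3 peak of the knockout alone, and 129 at one of Cas9 cells alone. Of those called in Cas9 cells alone, the numbers were 11 and 91. Of those called in both, 34 lay at a knockout H3K4me3 peak alone and 139 at a Cas9 one alone.

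Away regions were short and mostly low in score. The authors gave each peak a score whose meaning is not stated, and it was used only to rank peaks within 1 list. The median away region measured 221 bp (213 to 230) in the knockout alone, 205.5 bp (194 to 215) in Cas9 cells alone and 322 bp (305 to 349) in both. At H3K4me3 the medians were 265 bp (260 to 272), 217 bp (211 to 223) and 512 bp (505 to 519). These intervals come from ordered values. In the knockout list the median away region of the knockout alone ranked at percentile 13.4 (11.0 to 15.9) and that called in both at percentile 35.7 (31.2 to 44.0). In the Cas9 list those of Cas9 cells alone ranked at percentile 8.48 (6.35 to 13.4). Above the middle of their list were 20 of 304, 1 of 98 and 59 of 169 away regions of the knockout alone, Cas9 cells alone and both.

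Away shares were higher at low scores and short lengths, and the classes differed within most score and length ranges too. In the lowest score quartile of the knockout list, 13.5% (11.9 to 15.3) of 1614 regions of the knockout alone were away, against 6.67% (5.15 to 8.61) of 809 called in both. In the third quartile the shares were 6.51% (4.20 to 9.94) of 292 and 1.82% (1.34 to 2.48) of 2137. In the highest quartile the numbers were 1 of 51 and 20 of 2518, and the intervals, 0.347 to 10.3% and 0.515 to 1.22%, overlapped. In the lowest quartile of the Cas9 list, 15.6% (12.8 to 18.9) of 538 regions of Cas9 cells alone were away, against 4.63% (3.63 to 5.87) of 1362 called in both. Among regions of 170 bp to under 300 bp, 13.5% of 1752 regions of the knockout alone, 15.4% (12.7 to 18.6) of Cas9 cells alone and 7.74% (6.16 to 9.69) of those called in both were away. A shorter region has less length with which to meet an H3K4me3 peak, and how much of the difference this made was not tested.

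**Figure D1:**
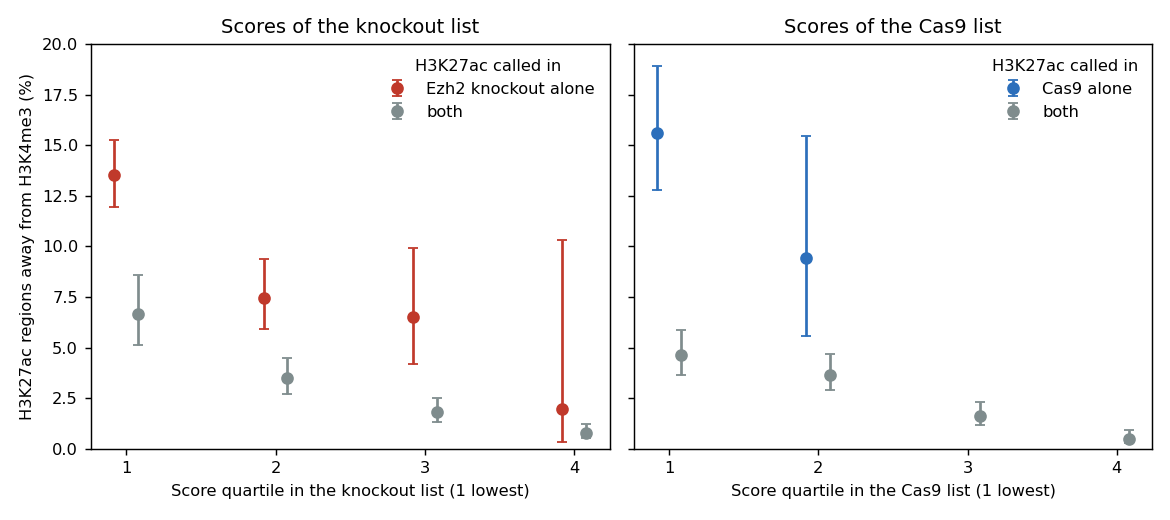
Percent of H3K27ac regions that overlapped no H3K4me3 peak (vertical axis) by score quartile of the authors' knockout list (left) and Cas9 list (right), with Wilson 95% intervals. Points stand for regions called in the knockout alone (red), Cas9 cells alone (blue) or both (grey), with groups of fewer than 20 regions left out. In the lowest quartile of the knockout list the shares were 13.5% and 6.67%, and both were lower in the highest quartile.

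On a log scale, distance to H3K4me3 fell into a near and a far group. Of the 571 away regions, 242, or 42.4% (38.4 to 46.5), lay under 1 kb from the nearest H3K4me3 peak of either kind of cell, and their median distance was 186 bp (159 to 204). Of the others, 48 lay 1 to 5 kb away, 189 lay 5 to 50 kb away and 92 lay 50 kb or more away. These ranges differ in width, so their counts cannot be compared per kb. The near group thus lay beside H3K4me3 peaks, and 281 of 571, or 49.2% (45.1 to 53.3), were at 5 kb or more. The absence of overlap alone therefore separated flanks of H3K4me3 peaks as well as distant regions. At the threshold itself, the closest away regions lay 0, 4, 7, 9 and 13 bp from a peak, while the left-out regions with the smallest H3K4me3 overlap shared 4, 4, 9, 10 and 13 bp. Within 100 bp of the threshold stood 61 away regions and 52 left-out regions.

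Away regions of the knockout alone lay farther from H3K4me3 than those called in both. The median distance was 9979 bp (6546 to 15087) in the knockout alone, 2585.5 bp (519 to 6835) in Cas9 cells alone and 454 bp (292 to 1896) in both. At 5 kb or more were 177 of 304 regions of the knockout alone, or 58.2% (52.6 to 63.6), 44 of 98 of the Cas9 cells, or 44.9% (35.4 to 54.8), and 60 of 169 of both, or 35.5% (28.7 to 43.0). At 50 kb or more the numbers were 72, 11 and 9. Regions of the knockout alone were thus 78.3% (68.8 to 85.5) of the 92 most distant ones and 45.9% (39.7 to 52.2) of the 242 nearest ones. With lists of equal length the medians were 7085 bp (568 to 9955), 2479.5 bp (477 to 5818) and 454 bp (271 to 1896). The interval of the knockout alone then overlapped those of the other classes, and its share at 50 kb or more was 20 of 40. Distance to H3K4me3 is tied to how the regions were chosen, so these values are a description.

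**Figure D2:**
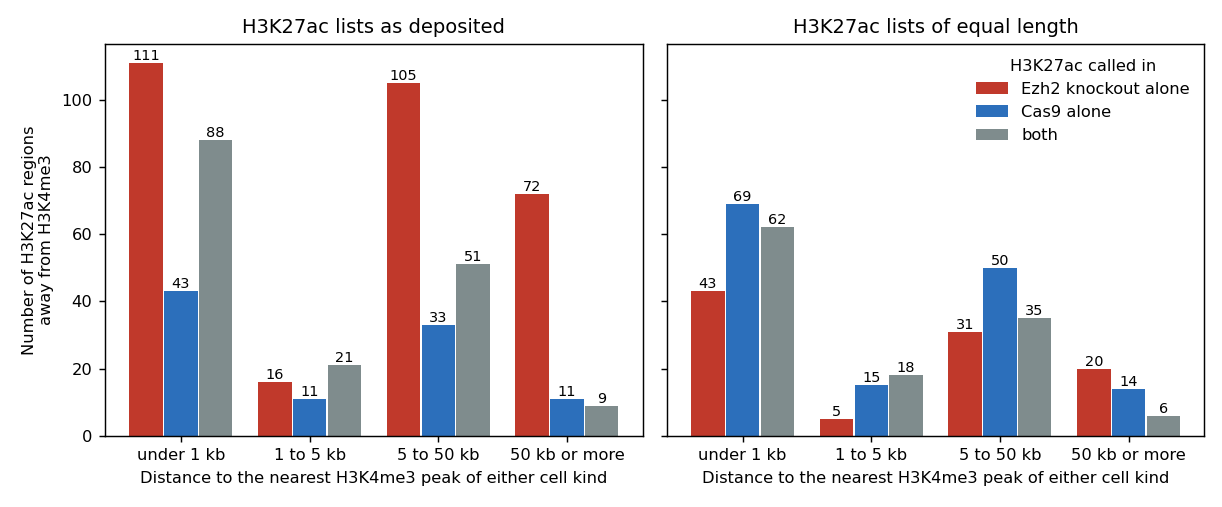
Number of away regions (vertical axis) by distance to the nearest H3K4me3 peak (horizontal axis), called in the knockout alone (red), Cas9 cells alone (blue) or both (grey). With the lists as deposited (left) the knockout alone had 72 of 92 regions at 50 kb or more, and with H3K27ac lists of equal length (right) it had 20 of 40.

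**Figure D3:**
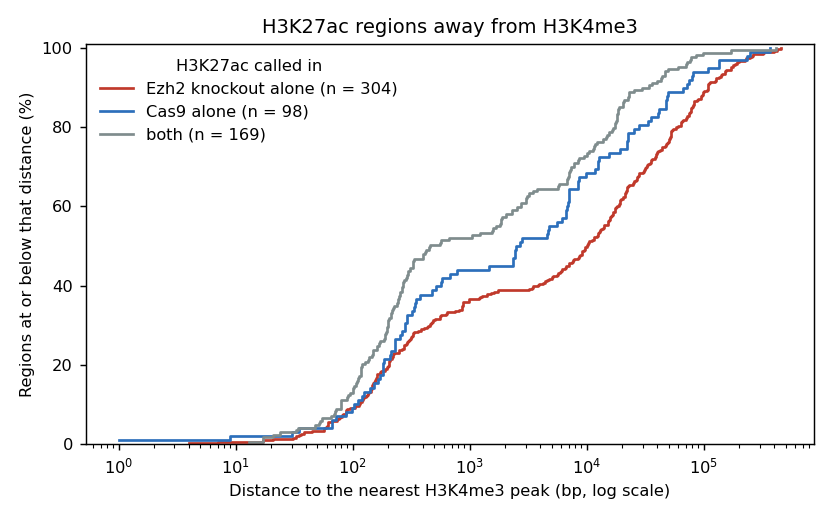
Cumulative percent of away regions (vertical axis) within a given distance of the nearest H3K4me3 peak (horizontal axis, bp, log scale, with the 1 region at 0 bp drawn at 1 bp), for regions of the knockout alone (red), Cas9 cells alone (blue) and both (grey). The 3 curves rise less steeply between 1 and 5 kb, where only 48 of 571 regions lay.

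In each class fewer regions had a knockout peak than a Cas9 peak as their nearest H3K4me3, with 119 against 184 for regions of the knockout alone, 32 against 66 for Cas9 cells alone and 46 against 122 for both. H3K4me3 peaks covered 8.57 Mb in the knockout and 9.74 Mb in Cas9 cells. Within 5 kb of a knockout H3K4me3 peak but not of a Cas9 one were 10 regions of the knockout alone, 0 of Cas9 cells alone and 1 of both. The reverse held for 9, 7 and 13 regions.

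The H3K4me3 places nearest to away regions were for the most part acetylated, as were most H3K4me3 places in general. Peaks of H3K4me3 from both kinds of cell were merged into places for this comparison. For away regions under 1 kb from such a place, the place carried H3K27ac in both kinds of cell in 60.4% (51.1 to 69.0) of 111 cases for the knockout alone, 65.1% (50.2 to 77.6) of 43 for Cas9 cells alone and 72.7% (62.6 to 80.9) of 88 for both. At 5 kb or more the same shares were 46.9% (39.7 to 54.2), 40.9% (27.7 to 55.6) and 46.7% (34.6 to 59.1). Of all 15241 places, 43.6% carried H3K27ac in both kinds of cell, 14.1% in the knockout alone, 2.84% in Cas9 cells alone and 39.4% in neither. The nearest place carried H3K27ac in the knockout alone for 47 of the 304 regions of the knockout alone, or 15.5%, and for 28 of the 177 at 5 kb or more, or 15.8% (11.2 to 21.9). The second interval holds the 14.1% of all places.

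H3K27me3, which the choice of regions did not use, was found at away regions of the knockout alone. Of these 304 regions, 35, or 11.5% (8.40 to 15.6), overlapped an H3K27me3 region of Cas9 cells, against 0 of 98 regions of Cas9 cells alone, which allows a share of up to 3.06%, and 2 of 169 called in both, or 1.18% (0.325 to 4.21). Over all H3K27ac regions the share was 8.62%, and over all of the knockout alone it was 27.5%. The last of these values rested mostly on regions at H3K4me3, where H3K27me3 of Cas9 cells was found at 747 of 2539 regions of the knockout alone, or 29.4% (27.7 to 31.2). With the lists as deposited, away regions of the knockout alone lay in it less often than those at H3K4me3, and the intervals did not overlap. The intervals overlapped when only the upper 50% of H3K4me3 scores were used, at 25.3% (23.0 to 27.8) of 1249 and 29.2% (27.1 to 31.5) of 1594. That setting counted regions at lower-scoring H3K4me3 peaks as away, so it cannot decide the contrast for the 304. Below the middle of the knockout scores the numbers were 30 of 284 away regions, or 10.6% (7.50 to 14.7), and 599 of 2216 regions at H3K4me3, with an interval of 25.2 to 28.9%. Above it they were 5 of 20 away regions, with an interval of 11.2 to 46.9%, and 148 of 323 at H3K4me3, or 45.8% (40.5 to 51.3), and the intervals overlapped. With lists of equal length the shares were 14.1% (8.61 to 22.3) of 99 and 33.4% (30.9 to 36.0) of 1298. Within Cas9 cells H3K27ac and H3K27me3 seldom shared a place, with 1.74% of the regions at H3K4me3 that were called in both, so the 3 classes do not stand on equal terms in this comparison.

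The share in H3K27me3 was much the same near to and far from H3K4me3. For regions of the knockout alone it was 10.8% (6.29 to 18.0) under 1 kb from H3K4me3, 13 of 105, or 12.4%, from 5 to 50 kb and 9 of 72 at 50 kb or more, with an interval of 6.72 to 22.1%. Regions just outside H3K27me3 added to the number nearby. Within 10 kb of an H3K27me3 region of Cas9 cells, overlaps included, lay 28.6% (23.8 to 33.9) of away regions of the knockout alone, 8.25% (4.24 to 15.4) of Cas9 cells alone and 5.92% (3.25 to 10.5) of both. At H3K4me3 these shares were 39.9% (38.0 to 41.8), 10.1% (7.87 to 12.7) and 11.6% (10.9 to 12.4).

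The 35 regions of the knockout alone sat in 33 H3K27me3 regions of Cas9 cells, which held at most 2 each, and 30 of the 35 were wholly covered. The 33 measured 1600 to 141000 bp with a median of 4400 bp, against a median of 3800 bp for all H3K27me3 regions of Cas9 cells. In 30 of the 33 no H3K27me3 was called in the knockout. H3K27me3 was called less widely in the knockout in general, in 5312 regions over 18.6 Mb against 14107 over 71.4 Mb in Cas9 cells. How often the other H3K27me3 regions of Cas9 cells lacked a knockout call was not analysed here. None of the 33 held an H3K27ac peak of Cas9 cells, and 20 held no H3K4me3 peak of either kind of cell. An H3K4me3 peak of the knockout was held by 13 and one of Cas9 cells by 8. How often all H3K27me3 regions of Cas9 cells held such peaks was not analysed here, so these counts have no background. The 33 were reached through H3K27ac regions without a Cas9 call, which favoured the absence of Cas9 H3K27ac in them. Of the 35, 22 lay at 5 kb or more from H3K4me3. The longest H3K27me3 region, chr15:102736601-102877600, held 10 H3K4me3 peaks of the knockout, 0 of Cas9 cells, and 1 away region from 102829940 to 102830134, which lay 872 bp from H3K4me3. It is named here after its values were seen.

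H3K27me3 of the knockout was rare at away regions. It overlapped 4 of 304 regions of the knockout alone, or 1.32% (0.513 to 3.33), 0 of 98 of Cas9 cells alone and 0 of 169 of both, against 1.00% of all H3K27ac regions. The 4 were chr4:131476081-131476260, chr16:17809445-17809774, chr7:108970292-108970625 and chr7:150623804-150624051. The first and last of these overlapped H3K27me3 in Cas9 cells too. All 4 are given as so few overlapped.

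Among away regions of the knockout alone the highest score, 46.71, stood apart from the next ones at 26.81. It belonged to chr7:19904824-19905502, at percentile 96.8 of the knockout list, 9190 bp from the nearest H3K4me3 peak of the knockout and 9149 bp from that of Cas9 cells. It straddled the end of an H3K27me3 region of Cas9 cells from 19901001 to 19905200, where the knockout had no H3K27me3. The next 4 were chr1:20941782-20942209, chr11:100407046-100407465, chr12:86826508-86826984 and chr16:78377227-78377501. None of these 4 overlapped H3K27me3. The first and second were 60283 and 17357 bp from H3K4me3. The third was 9766 bp from a knockout peak and 247 bp from a Cas9 peak, and the fourth 205 bp from a knockout peak and inside a Cas9 antibody island of U6 neurospheres.

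Away regions of Cas9 cells alone reached a score of 19.97, just above the middle of their list. The 5 highest were chr2:151320068-151320473, chr2:144376332-144376556, chr3:57539544-57539887, chrX:71515723-71515928 and chr7:80686386-80686585. Their distances to H3K4me3 were 47442, 4803, 111, 12420 and 681 bp. Both regions on chromosome 2 lay between H3K4me3 peaks with numbers not analysed here, so their distance may be overstated. None of the 5 overlapped H3K27me3 in either kind of cell.

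Regions called in both held the 2 highest scores among away regions of the knockout list, ahead of the 46.71 of the knockout alone, and the highest of the Cas9 list. The first was chr1:72290485-72290813, with a score of 56.06 in the knockout list and 52.85 in the Cas9 list, at percentiles 99.1 and 98.2. It was 31460 bp from a knockout H3K4me3 peak and 7196 bp from one of Cas9 cells. Another of the 5 highest lay on the same chromosome, chr1:72301290-72301578, with scores of 38.18 and 28.3. The region chr1:88331182-88331963 scored 47.12 in the knockout list and 39.95 in the Cas9 list, and it was 51782 bp from knockout H3K4me3 and 6866 bp from that of Cas9 cells. The region chr11:101519270-101519542 scored 43.46 and 31.21, with H3K4me3 of the knockout 7329 bp and of Cas9 cells 7398 bp away. The fifth, chr11:3102353-3102552, scored 43.46 and 49.1, but it lay 118 bp from H3K4me3, inside a Cas9 antibody island of Suz12F2 neurospheres and between H3K4me3 peaks with numbers not analysed here. None of the 5 overlapped H3K27me3.

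The 3 away regions farthest from H3K4me3 were weak. They were chr19:8326969-8327138, at 460023 bp, chr4:63643804-63643973, at 423735 bp, and chrX:11241913-11242301, at 411680 bp. The first and second were called in the knockout alone, with scores of 11.78 and 10.97, and the third in both, with 12.19 in the knockout and 10.82 in Cas9 cells. The region on chromosome 19 was wholly inside an H3K27me3 region of Cas9 cells.

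Away regions occurred mostly apart from each other. Joined at the stitching distance commonly used for super-enhancers, 437 of 571 stood alone and 134 fell into 57 runs of 2 or more. H3K27ac regions at H3K4me3 were left out of this joining, so a region that stood alone may still have acetylated neighbours. Of these 57 runs, 16 held no other regions than those of the knockout alone, 2 none but those of Cas9 cells alone and 3 none but those called in both, while 8 mixed regions of the knockout alone with regions of Cas9 cells alone. The largest, chr13:23626445-23677377, held 8 regions, of which 0 were of the knockout alone, 4 of Cas9 cells alone and 4 of both. It spanned 2 H3K4me3 peaks of the knockout and 1 of Cas9 cells, and its regions lay 196 to 9795 bp from H3K4me3. Their scores were 10.15 to 15.44 in the knockout list and 10.82 to 17.89 in the Cas9 list, and 3 of the 8 lay between H3K4me3 peaks with numbers not analysed here. H3K27me3 was not called in this run in either kind of cell, and 7 of its 8 regions lay in Gfi1 antibody islands of Suz12F2 neurospheres against 1 in those of Cas9 neurospheres.

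The second run, chr7:19895796-19912318, held the highest-scoring region of the knockout alone, 2 others of the knockout alone with scores of 20.31 and 16.25, and 1 called in both with 20.31 in the knockout and 10.82 in Cas9 cells. Its regions lay 121 to 10003 bp from H3K4me3. It held 0 H3K4me3 peaks, 0 H3K27me3 regions of the knockout and 3 of Cas9 cells, and all 4 away regions lay in Gfi1 antibody islands of both neurosphere lists. The third, chr11:101502773-101519542, was the longest of 12 runs with 3 regions. It held 1 region of the knockout alone, with a score of 21.12, and 2 of both. No H3K27me3 or H3K4me3 was called within it.

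**Figure D4:**
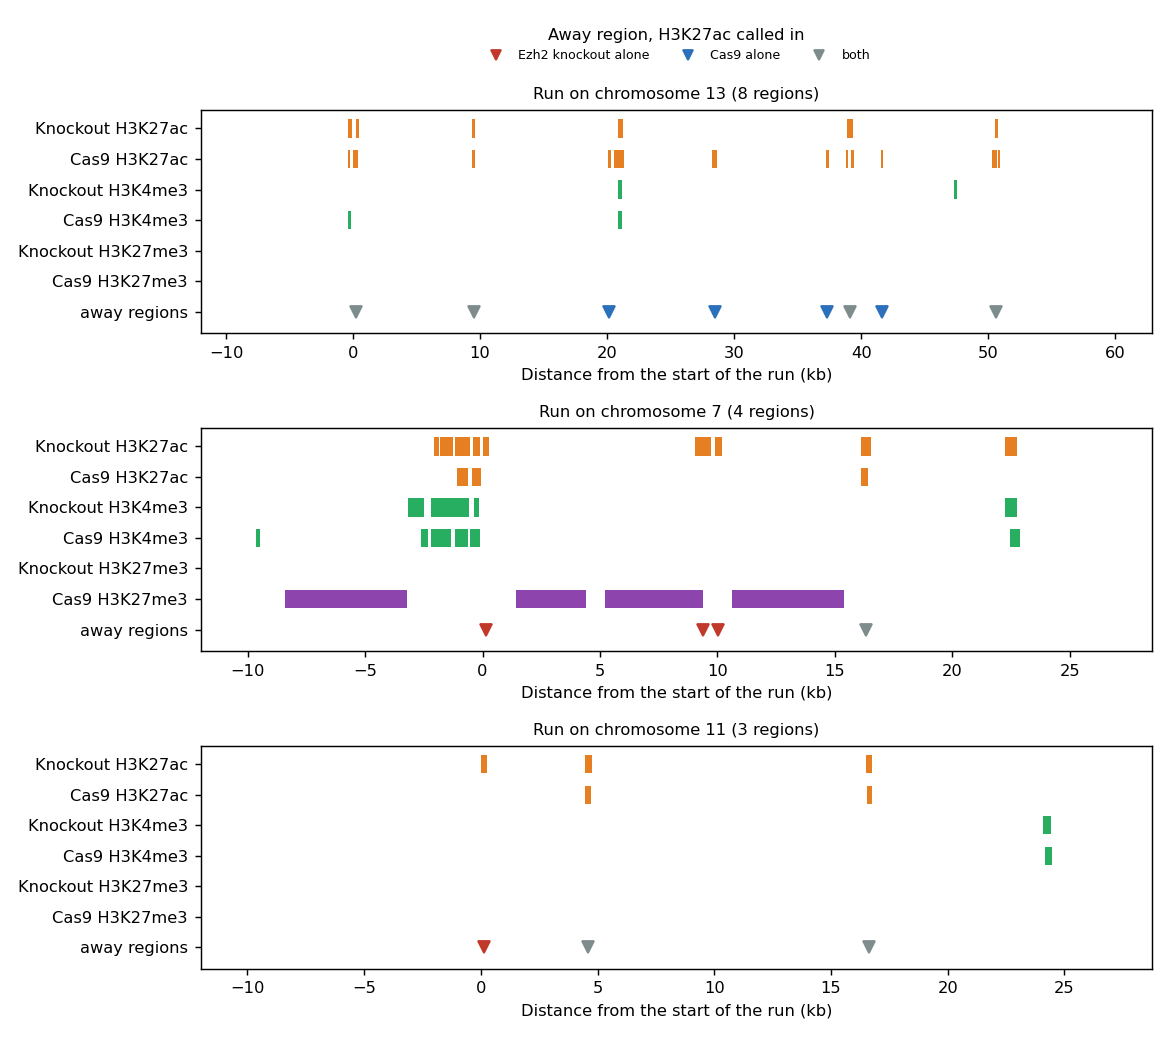
Positions of peaks in 3 runs of away regions, those with the most members and, at equal numbers, the longest, in kb from the start of each run (horizontal axis), with 1 row per list for H3K27ac (orange), H3K4me3 (green) and H3K27me3 (purple) and triangles for away regions of the knockout alone (red), Cas9 cells alone (blue) or both (grey). The run on chromosome 7 holds 3 H3K27me3 regions of Cas9 cells and 0 of the knockout. The runs on chromosomes 13 and 11 hold none.

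Gfi1 antibody islands of neurospheres, likewise not used in the choice, covered most away regions. These islands covered 294.0 Mb in Suz12F2 neurospheres, 11.4% of the span between the outermost regions of all lists, and 367.9 Mb in Cas9 neurospheres, 14.3% of that span. Of the away regions 527 of 571, or 92.3% (89.8 to 94.2), lay in islands of Suz12F2 neurospheres, against 98.8% of all H3K27ac regions. In islands of Cas9 neurospheres were 476 of 571, or 83.4% (80.1 to 86.2), against 87.7% of all H3K27ac regions. Both lists held 466 away regions and neither held 34, or 5.95% (4.29 to 8.21), while at H3K4me3 the share in neither was 0.768% (0.615 to 0.959). Neurospheres are other cells than the tumour cells, and how far these islands mark bound Gfi1 was not tested.

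By class, islands of Suz12F2 neurospheres held 94.1% (90.8 to 96.2) of away regions of the knockout alone, 87.8% (79.8 to 92.9) of Cas9 cells alone and 91.7% of both, 155 of 169. Those of Cas9 neurospheres held 84.5% (80.0 to 88.2), 76.5% (67.2 to 83.8) and 85.2% (79.1 to 89.8). The intervals of the knockout alone and Cas9 cells alone overlapped in both lists. Over all H3K27ac regions the same classes had shares of 98.4%, 96.4% and 99.2% in the Suz12F2 list. In the Cas9 list they had 89.3%, 85.4% and 87.3%, so Cas9 cells alone were lowest there too. All 35 regions of the knockout alone in H3K27me3 of Cas9 cells lay in islands of Suz12F2 neurospheres, with an interval of 90.1 to 100%. In those of Cas9 neurospheres lay 33 of 35, or 94.3% (81.4 to 98.4). For the other 269 the shares were 93.3% (89.7 to 95.7) and 83.3% (78.3 to 87.3), and the intervals overlapped in both lists.

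The share in Gfi1 islands was lower far from H3K4me3. Under 1 kb from H3K4me3, 96.3% (93.1 to 98.0) of 242 away regions lay in islands of Suz12F2 neurospheres and 88.0% (83.3 to 91.5) in those of Cas9 neurospheres. At 5 kb or more the shares were 88.6% (84.4 to 91.8) and 78.6% (73.5 to 83.0) of 281. Each class alone went the same way, but the intervals of these distance ranges overlapped with 1 exception. That was regions called in both in islands of Cas9 neurospheres, at 90.9% (83.1 to 95.3) and 73.3% (61.0 to 82.9). The score of the H3K27ac peak went with little difference, since 92.3% (89.6 to 94.3) of away regions below the middle of their list and 92.5% (84.6 to 96.5) above the middle of their list lay in islands of Suz12F2 neurospheres. The islands at away regions had a median of 4400 bp in the Suz12F2 list and 6800 bp in the Cas9 list. Over the whole lists the medians were 3000 and 4000 bp, and for islands at H3K27ac regions at H3K4me3 they were 2800 and 3600 bp. The part of island length in these shares was not tested.

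**Figure D5:**
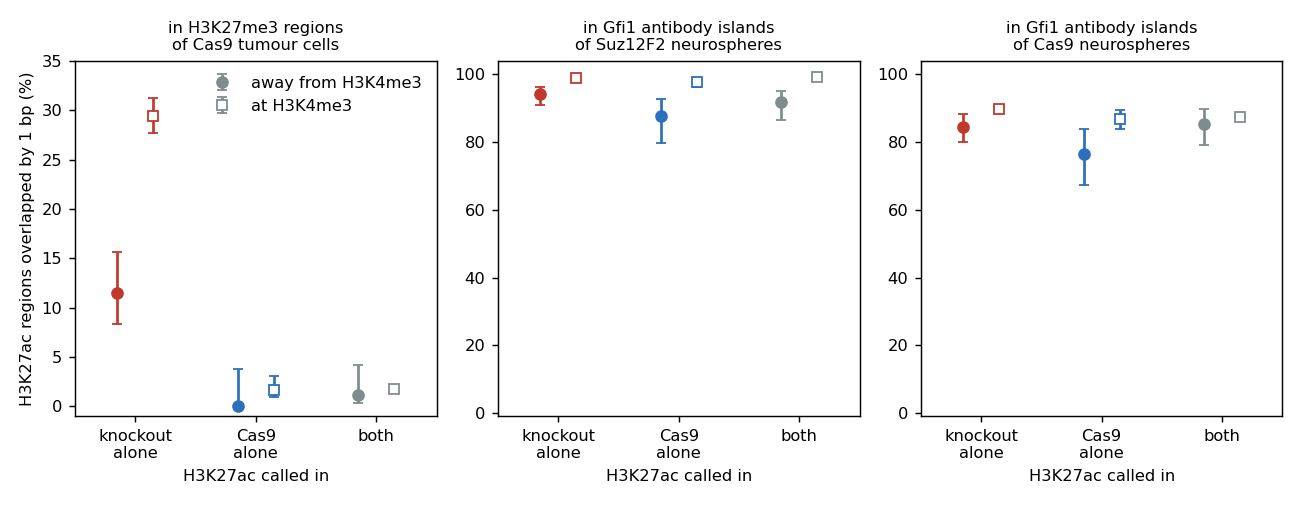
Percent of H3K27ac regions (vertical axis) that overlapped H3K27me3 regions of Cas9 tumour cells (left), Gfi1 antibody islands of Suz12F2 neurospheres (middle) and of Cas9 neurospheres (right), with Wilson 95% intervals, by the cells in which H3K27ac was called. Filled circles are away regions and open squares regions at H3K4me3, with different axis ranges for H3K27me3 and Gfi1. For the knockout alone, 11.5% of away regions and 29.4% of regions at H3K4me3 lay in H3K27me3, with the lists as deposited.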

How the data were processed

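Chromatin immunoprecipitation and sequencing gave 14 libraries, and 11 lists of regions were analysed. Each list deposited by the authors belonged to 1 library, and the 3 input libraries were not analysed here. Build mm9 and the tools SICER 1.1, BWA 0.5.9-r26, R 2.14.0, Picard and SAMtools are listed, per the submitters' processing notes, with no role for each. Per the names of the deposited files, islands had a 200 bp window, a 600 bp gap and a false discovery rate of 0.00001. For H3K27ac and H3K4me3 peaks, caller and threshold are not stated, nor is the input set against each list. The deposited score of each region is the authors' own, and its meaning is not stated.

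Groups came from the titles. Island ends name the last base, so 1 bp was added. Overlap meant 1 bp, distances were counted edge to edge, and percentiles of scores were taken within 1 list. Named regions were the 5 highest scores of each class, the 3 farthest from H3K4me3 and the 3 runs with the most members (the longest first where numbers were equal), unless another reason is given. The regions and rules were chosen with earlier results of these data known. Python 3.11.15, numpy 2.4.6, scipy 1.17.1 and matplotlib 3.10.9 were used. Overlaps were checked with bedtools 2.31.1 in 22 combinations, of which 0 differed, and the class and overlap calls were right for 3000 of 3000 regions of simulated data. No genome or annotation of build mm9 was used here, so genes and sequences are not given.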

Additional observations from a re-analysis of the deposited data

Results flagged for a closer look

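Cas9 antibody islands, which enter no comparison above, overlapped some away regions, at shares below those of all H3K27ac regions. Islands of U6 neurospheres held 4.38% (2.98 to 6.38) of the 571 away regions, against 15.1% of all H3K27ac regions. Those of Suz12F2 neurospheres held 2.98% (1.87 to 4.72), against 7.25% of all H3K27ac regions. Those of Suz12F1 neurospheres held 0 of 571, and only 4 of all 10599 H3K27ac regions. These shares are listed because the islands were otherwise unused and the counts were above 0, which shows no excess at away regions. Over the 3 lists together 36 away regions, or 6.30% (4.59 to 8.60), were overlapped, against 18.7% of all H3K27ac regions and 19.4% (18.6 to 20.2) of those at H3K4me3. Of the 36, 24 lay under 1 kb from H3K4me3, out of 242 such regions, and 7 lay at 5 kb or more, out of 281.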

How the results depend on the processing

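Of 76 values computed under 10 alternative settings for 8 results, 48 stayed within the interval of the reported value or, for the number of regions, within 1.5 times of it, and 28 did not. In the upper 50% of H3K27ac scores, 89 away regions remained, with 5.62% in Cas9 cells alone, 0 of those in both in H3K27me3 and a median distance of 1525 bp. With H3K27ac lists of equal length there were 368, with 26.9% in the knockout alone, 40.2% in Cas9 cells alone and a median of 1876 bp. With the upper 50% of H3K4me3 scores there were 2587, with 48.3% in the knockout alone, 11.98% in Cas9 cells alone, 25.3% of the knockout alone in H3K27me3, 96.6% in Gfi1 islands of Suz12F2 neurospheres and a median of 25243 bp, since fewer H3K4me3 peaks were left. At 1 kb or more from H3K4me3 there were 329, with 58.7% in the knockout alone, 89.4% and 79.9% in Gfi1 islands of Suz12F2 and Cas9 neurospheres and a median of 20353 bp. At 5 kb or more there were 281, with 63.0%, 88.6%, 78.6% and 25586 bp. Both settings select on distance, so their lower counts and longer medians, which are among the 28, were certain in advance. Merging H3K27ac peaks within 1 kb gave 338, with 88.2% and 78.7% in Gfi1 islands and a median of 17406.5 bp. Covering 50% of a region, autosomes alone, leaving out Cas9 antibody regions and leaving out the 47 regions beside H3K4me3 numbers not analysed here (a setting chosen after seeing the data) moved no value beyond its interval. Causes were not tested. No paired analysis was possible because each group held 1 library. Read depth is unknown, so list length may reflect depth, and a region without a call cannot be told from one below the threshold.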

Other observations

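Away regions were unevenly spread over chromosomes. On chromosome 13 lay 13 of the 98 away regions of Cas9 cells alone, or 13.3%, while that chromosome held 3.80% of all H3K27ac regions. Of its 403 H3K27ac regions 31 were away, or 7.69% (5.47 to 10.7). Its share of all H3K27ac regions of Cas9 cells alone, the closer match, was not analysed here. Of the 13, 10 lay in 1 stretch, chr13:21842610-23852852, which includes the run of 8 described above. That stretch held 27 H3K27ac regions, of which 16 were away, with 1 called in the knockout alone, 10 in Cas9 cells alone and 5 in both. Of the 16, 6 lay between H3K4me3 peaks with numbers not analysed here. On chromosome 7, 7.91% (6.18 to 10.1) of 746 H3K27ac regions were away, on chromosome X 15 of 159, or 9.43%, and on chromosome 16 2.79% (1.52 to 5.05) of 359, against 5.39% overall. The only H3K27ac region on chromosome Y was an away region of Cas9 cells alone. These chromosomes were singled out after their values were seen.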
